A study of Mus musculus with 24 samples.

Results

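The 10 contractile genes described here were taken by name: every row of the count table whose identifier maps to Acta2, Tagln, Cnn1, Myh11, Des, Actg2, Myocd, Lmod1, Synpo2 or Mylk was used, 10 of 78275 genes in the table. Their levels were read in all 24 lung libraries and compared between the 8 groups of the study. Of the 10, 9 had reads in every library and passed the filter on low counts, and Myocd was listed at 0 throughout.

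Smooth muscle cells of airways and vessels contract when myosin light chain kinase phosphorylates smooth muscle myosin, which then pulls on actin filaments dressed with calponin, transgelin and leiomodin. Fibroblasts that turn into myofibroblasts take on part of this machinery, above all the alpha actin encoded by Acta2, which is why these genes are widely read as markers of lung fibrosis. Many of them are switched on by serum response factor with its partners myocardin and the MRTF proteins, through a DNA element called the CArG box.

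The study asked whether remote ischemic conditioning, in which blood flow to a limb is blocked and released in short cycles, alters the lung response to diesel exhaust. Lung tissue came from male C57BL/6 mice, labelled as aged 20 weeks, and polyadenylated RNA was sequenced in 8 groups of 3 libraries. DE+PFD+RIC mice breathed diesel exhaust, were dosed with pirfenidone, an antifibrotic drug, and were conditioned during the exposure. RIC+DE+PFD mice had exhaust and pirfenidone and were conditioned before the exposure. DE+RIC mice had exhaust and conditioning during it, RIC+DE mice exhaust and conditioning before it, and DE+PFD mice exhaust and pirfenidone. DE mice had exhaust alone, RIC mice conditioning alone, and C mice had no treatment. Exhaust was given for 30 min on 5 days a week over about 8 weeks. Conditioning was 3 cycles of 5 min ischemia and 5 min reperfusion on the left leg, on 3 days a week for 4 weeks. The daily oral dose of pirfenidone was 300 mg/kg, on 6 days a week, in 0.5% carboxymethylcellulose. No group is labelled as given that vehicle alone, so drug and vehicle cannot be told apart. The labels do not say that the 3 libraries of a group came from different animals, so p-values measure the spread between libraries, which may be technical.

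The labels date 9 libraries to March, 14 to October and 1, DE+RIC 3, to November, without saying what was done on those dates. Total counts were 12224106 to 16925635 in March, 3906807 to 11298160 in October and 18494156 in November. All RIC+DE libraries were from March and all DE libraries from October, so those groups share no date. The labelled tissue was checked with Sftpc, surfactant protein C of alveolar type 2 cells, at 6988 to 68170 CPM (read counts adjusted for TMM-scaled library size), and Scgb1a1, the club cell protein, at 15680 to 156900 CPM. The lowest value of each was in RIC+DE 1 and the highest in RIC+DE+PFD 1. Among the contractile genes, 3 libraries stood apart, C 1, RIC+DE 1 and RIC+DE+PFD 1, all from March. Several of the main values that move without them, though not all, are given both ways.

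Promoter sequence is shown for Acta2 because it was the only member with a CArG-like element among the 6 that matched the RefSeq promoter table (build GRCm38.p6: Acta2, Cnn1, Des, Lmod1, Synpo2 and Mylk). Tagln, Myh11, Actg2 and Myocd had no entry there and were not searched. In genes with an entry, the 250 bases before the gene start were searched. An exact CArG box was taken as CC, 6 bases that are each A or T, and GG, and a CArG-like element as the same with at most 1 of the 6 inner bases being C or G, so that every exact box also counts as CArG-like. Both forms read alike on either strand. No exact box was found in the windows of the 6 members (0 of 6), against 1.62% of 27025 genes with a promoter in the table, and a CArG-like element was found in 1 of 6, against 9.78%. In Acta2, on the minus strand of chr19:34255374-34255487, the elements in capitals begin 84 and 34 bases before the start:
Acta2: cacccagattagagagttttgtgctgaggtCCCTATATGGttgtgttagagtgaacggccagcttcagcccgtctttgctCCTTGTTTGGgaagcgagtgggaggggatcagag

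Of 25 other genes of the contractile apparatus, 23 had a promoter in the table and 5 of these (21.7%) held an exact CArG box. Like shares were found for alveolar epithelium (2 of 9, 22.2%), cardiac muscle (3 of 15, 20.0%) and skeletal muscle genes (2 of 10, 20.0%). The remaining lists were at 0% to 10.0%. A CArG-like element was found in 7 of 23 other contractile apparatus genes (30.4%) and 3 of 9 alveolar epithelium genes (33.3%). Cardiac muscle genes had it in 4 of 15 (26.7%) and skeletal muscle genes in 5 of 10 (50.0%), with the remaining lists at 0% to 28.6%. Shown for comparison with Acta2 are Myl9, a regulatory light chain of smooth muscle myosin (plus strand of chr2:156775283-156775332), Cnn2, a calponin of many cell types (plus strand of chr10:79988524-79988573), Myl6, the essential light chain of smooth and nonmuscle myosin (minus strand of chr10:128493030-128493079), Vcl, vinculin of adhesion sites (plus strand of chr14:20929151-20929200), and Ldb3, a Z disc protein of striated muscle (minus strand of chr14:34588687-34588736). The box is in capitals:
Myl9: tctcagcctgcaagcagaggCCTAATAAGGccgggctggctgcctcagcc
Cnn2: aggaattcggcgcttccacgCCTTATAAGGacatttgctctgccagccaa
Myl6: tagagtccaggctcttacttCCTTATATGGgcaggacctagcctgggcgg
Vcl: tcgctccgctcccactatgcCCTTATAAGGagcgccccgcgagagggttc
Ldb3: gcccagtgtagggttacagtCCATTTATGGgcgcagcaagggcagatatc
These genes were picked for the box, after the search. Myl9 was at 71.7 to 304.8 CPM over the 24 libraries, Cnn2 at 228.9 to 1045, Myl6 at 495.5 to 2694, Vcl at 74.1 to 285.7 and Ldb3 at 5.89 to 111.0. Their log2 differences between DE and C were 0.29 ± 0.31 (SE) for Myl9, 0.12 ± 0.28 for Cnn2, 0.41 ± 0.33 for Myl6, -0.18 ± 0.30 for Vcl and 0.50 ± 0.45 for Ldb3, each with an edgeR adjusted p of 0.988.

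Across all libraries, and per kilobase of exon, the smooth muscle actin and its binding protein were the most abundant members. Acta2 averaged 179.6 CPM per kilobase and Tagln, which encodes the actin-binding protein transgelin (SM22), 156.0. Des, the intermediate filament desmin, was at 70.5, and Mylk, the myosin light chain kinase, at 32.0. Cnn1, the calponin of smooth muscle, was at 31.5 CPM per kilobase, Myh11, the heavy chain of smooth muscle myosin, at 27.9 and Actg2, the gamma actin of visceral smooth muscle, at 27.4. Lmod1, a leiomodin that nucleates actin filaments, was at 6.93 and Synpo2, an actin-bundling protein of the Z disc and of smooth muscle, at 2.85. Each of the 9 had at least 76 reads in every library (the lowest was Lmod1 in RIC+DE+PFD 1), and Myh11 reached 9046.

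Myocd, the myocardin coactivator of smooth muscle genes, was listed at 0 in all 24 libraries. Chchd2, H3f3b and Ndufa13, which cells use generally, were also listed at 0 in all 24, as were 3538 of 21732 protein-coding genes, so the 0 of Myocd is not read as absence of expression. The exons of Tagln overlap Pcsk7 and Gm48529 on the other strand, those of Des overlap Gm15179, and those of Mylk overlap E130310I04Rik and Gm21691. Since no source used here gives the strand setting of the counting, counts of these 3 genes may hold reads of those neighbours.

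Acta2, the actin read as the myofibroblast marker, was at 300.0, 291.0 and 284.1 CPM in DE+PFD+RIC, 703.3, 385.4 and 373.9 in RIC+DE+PFD, and 375.8, 517.5 and 330.4 in DE+RIC. It was at 450.7, 221.8 and 286.9 CPM in RIC+DE and 424.7, 364.4 and 457.1 in DE+PFD. In DE it was at 478.7, 376.0 and 463.6 CPM, in RIC at 388.3, 409.0 and 557.9, and in C at 126.2, 434.6 and 462.8. C 1 was the lowest of the 24 libraries and RIC+DE+PFD 1 the highest, and the DE and C values overlapped. The group means ran from 291.7 ± 7.95 CPM in DE+PFD+RIC (SD, n = 3) through 319.8 ± 117.9 in RIC+DE, 341.2 ± 186.7 in C, 407.9 ± 97.6 in DE+RIC, 415.4 ± 47.1 in DE+PFD, 439.4 ± 55.4 in DE and 451.7 ± 92.5 in RIC to 487.5 ± 186.9 in RIC+DE+PFD. Each step between neighbours in that order was smaller than the larger of their SDs.

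Myh11, the motor of smooth muscle, was at 169.3, 272.0 and 254.8 CPM in DE+PFD+RIC, 30.3, 261.4 and 176.0 in RIC+DE+PFD, and 179.1, 164.6 and 183.0 in DE+RIC. It was at 584.9, 245.9 and 209.2 CPM in RIC+DE and 268.8, 166.1 and 218.2 in DE+PFD. In DE it was at 164.1, 170.2 and 206.7 CPM, in RIC at 255.2, 160.3 and 199.1, and in C at 130.0, 202.1 and 213.2. Here RIC+DE+PFD 1, the highest library for Acta2, was the lowest, and RIC+DE 1 was the highest.

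Over the 9 members the highest group mean was 1.51 (Lmod1) to 2.73 (Synpo2) times the lowest. C 1 was the lowest library for Acta2, Tagln, Cnn1, Des and Actg2, and RIC+DE+PFD 1 for Myh11, Lmod1, Synpo2 and Mylk. RIC+DE 1 was the highest library for Myh11, Des, Lmod1 and Synpo2. edgeR's quasi-likelihood F test for any difference among the 8 groups, with a term for the date, gave adjusted p from 0.452 (Synpo2) to 0.904 (Actg2), so no order of the groups was separated beyond the spread between libraries. The same test called 0% of the 17490 genes tested at an adjusted p under 0.05, with 14.4% at an unadjusted p under 0.05, among them 0 of the 9 members. DESeq2 called 1073 genes in that test and 0 members. In bulk tissue, fewer contractile cells and less RNA per cell cannot be told apart.

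**Figure D1:**
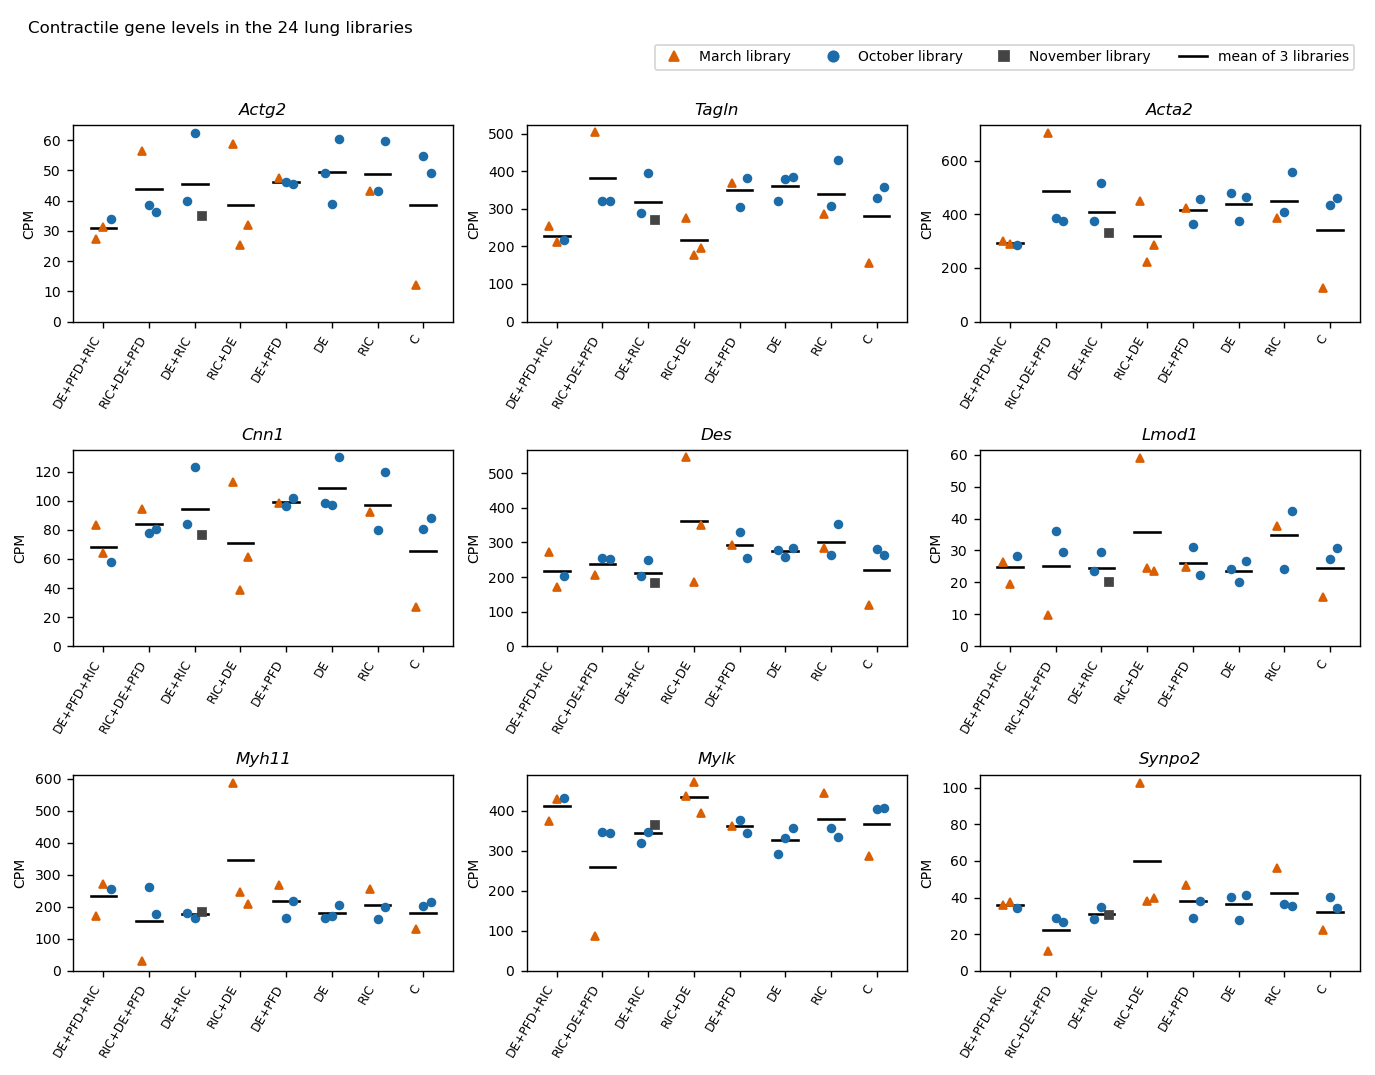
CPM of the 9 contractile genes with reads in the 8 groups, each point 1 library (triangle March, circle October, square November) and each bar the mean of 3. C 1 sits at the bottom for Acta2 at 126.2 CPM, and RIC+DE+PFD 1 sits at the top for Acta2 at 703.3 CPM and at the bottom for Myh11 at 30.3 CPM.

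Diesel exhaust against untreated lungs. Between DE and C, 0 of the 9 contractile genes passed the threshold. The largest difference was in Cnn1, an inhibitor of the myosin ATPase, at 98.5, 97.3 and 129.9 CPM in DE and 26.8, 80.8 and 88.3 CPM in C. All DE libraries lay above all C libraries for Cnn1, the only member whose groups did not overlap, as they also did not for 14.5% of all genes tested (7.6% with DE above). Its log2 difference was 0.71 ± 0.36 (SE, edgeR adjusted p = 0.988), and it was 0.36 without C 1. Tagln was at 320.2, 379.0 and 384.4 CPM in DE and 155.5, 330.2 and 359.1 CPM in C. C 1 again lay far below the other C libraries, and the log2 difference was 0.34 ± 0.28, or 0.07 without C 1. Acta2 differed by 0.35 ± 0.36, or -0.03 without C 1, and Actg2 by 0.33 ± 0.38, or -0.07 without C 1. The long members lay on both sides of 0, with Des at 0.25 ± 0.31, Synpo2 at 0.15 ± 0.38, Myh11 at -0.10 ± 0.49, Lmod1 at -0.17 ± 0.37 and Mylk at -0.26 ± 0.31.

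The median over the 9 members was 0.25, against -0.00 over all genes tested, and it was -0.04 without C 1 and -0.03 among October libraries alone. edgeR made 0 calls in 17490 genes, and 3.33% were at an unadjusted p under 0.05 (1.95% higher and 1.38% lower in DE) with 0 members among them, while DESeq2 called 17 genes and 0 members. The other genes of the contractile apparatus had a median of -0.02, with 12 of 25 above 0 and 0 at an unadjusted p under 0.05. The 22 genes of the SRF, MRTF and myocardin regulators had a median of -0.28 over the 21 tested, 20 of them below 0 and 0 called. The leading ones were Klf2, a flow-induced factor of endothelium, at log2 -0.60 ± 0.28 (edgeR adjusted p = 0.988), and Notch3, the Notch receptor of mural cells, at -0.78 ± 0.38 (edgeR adjusted p = 0.988). Pln, phospholamban of cardiac and smooth muscle, led the excitation and contraction list at 1.16 ± 0.48 (edgeR adjusted p = 0.988). Vascular smooth muscle genes, a list that also holds Pln, were above 0 in 8 of 9 with a median of 0.36. Airway smooth muscle genes were below 0 in 5 of 8 tested (median -0.33) and pericyte genes in 10 of 15 (median -0.09). Cardiac muscle genes, which the lung holds in the sleeves of its pulmonary veins, had a median of 0.62 with 16 of 16 above 0. Their summed level was 1153 to 1954 CPM in DE and 347.4 to 1592 in C, with C 1 the lowest, and adipocyte markers had a median of 2.84 with 8 of 9 at an unadjusted p under 0.05, at 310.9 to 3025 CPM summed in DE and 136.9 to 317.7 in C. The part of these markers in the result was not tested.

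Taking the 18 libraries of the 6 exposed groups against the 6 of RIC and C gave narrower intervals. The date term takes up DE+RIC 3, alone in November, so that library does not inform this or the other differences that use DE+RIC. Acta2 differed by log2 0.03 (95% interval -0.42 to 0.49) and Tagln by -0.00 (-0.35 to 0.34), and without C 1 they were at -0.25 and -0.20. The other members lay between -0.10 ± 0.21 (Lmod1) and 0.17 ± 0.21 (Cnn1), and the median of the 9 was 0.03, against 0.00 over all genes, and -0.17 without C 1. edgeR called 0 genes here, with 3.02% at an unadjusted p under 0.05 (1.15% higher and 1.87% lower) and 0 members among them, and DESeq2 called 2 genes and 0 members. The list of myofibroblast and matrix genes had a median of -0.05 with 13 of 20 below 0, led by Col1a1, a chain of type I collagen, at -0.50 ± 0.22, and Eln, elastin, at -0.56 ± 0.26 (edgeR adjusted p of 1 for each).

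Conditioning in unexposed lungs. RIC minus C was above 0 for all 9 members, with 0 past the threshold, and above 0 for 6 of 9 without C 1. Lmod1 was at 37.7, 24.3 and 42.3 CPM in RIC and 15.3, 27.2 and 30.7 CPM in C, a log2 difference of 0.60 ± 0.36 (edgeR adjusted p = 1). Des was at 285.4, 264.0 and 354.3 CPM in RIC and 120.3, 279.9 and 264.5 CPM in C, a log2 difference of 0.48 ± 0.31 (edgeR adjusted p = 1). Apart from C 1, the ranges of RIC and C overlapped for both genes. The groups overlapped for all 9 members, while 4.91% of all genes did not overlap. The median of the 9 was 0.43, against -0.00 over all genes, and 0.09 without C 1 or 0.10 among October libraries alone. Cardiac muscle genes lay above 0 in 16 of 16 with a median of 0.56, at 1247 to 1510 CPM summed in RIC and 347.4 to 1592 in C. Alveolar epithelium and mesothelium genes lay below 0 in 12 of 12 and 8 of 8, with medians of -0.12 and -0.25. The part of these markers in the result was not tested. With edgeR 0 genes passed, 1.2% had an unadjusted p under 0.05 (0.623% higher and 0.577% lower in RIC) with 0 members among them, and DESeq2 called 4 genes and 0 members.

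**Figure D2:**
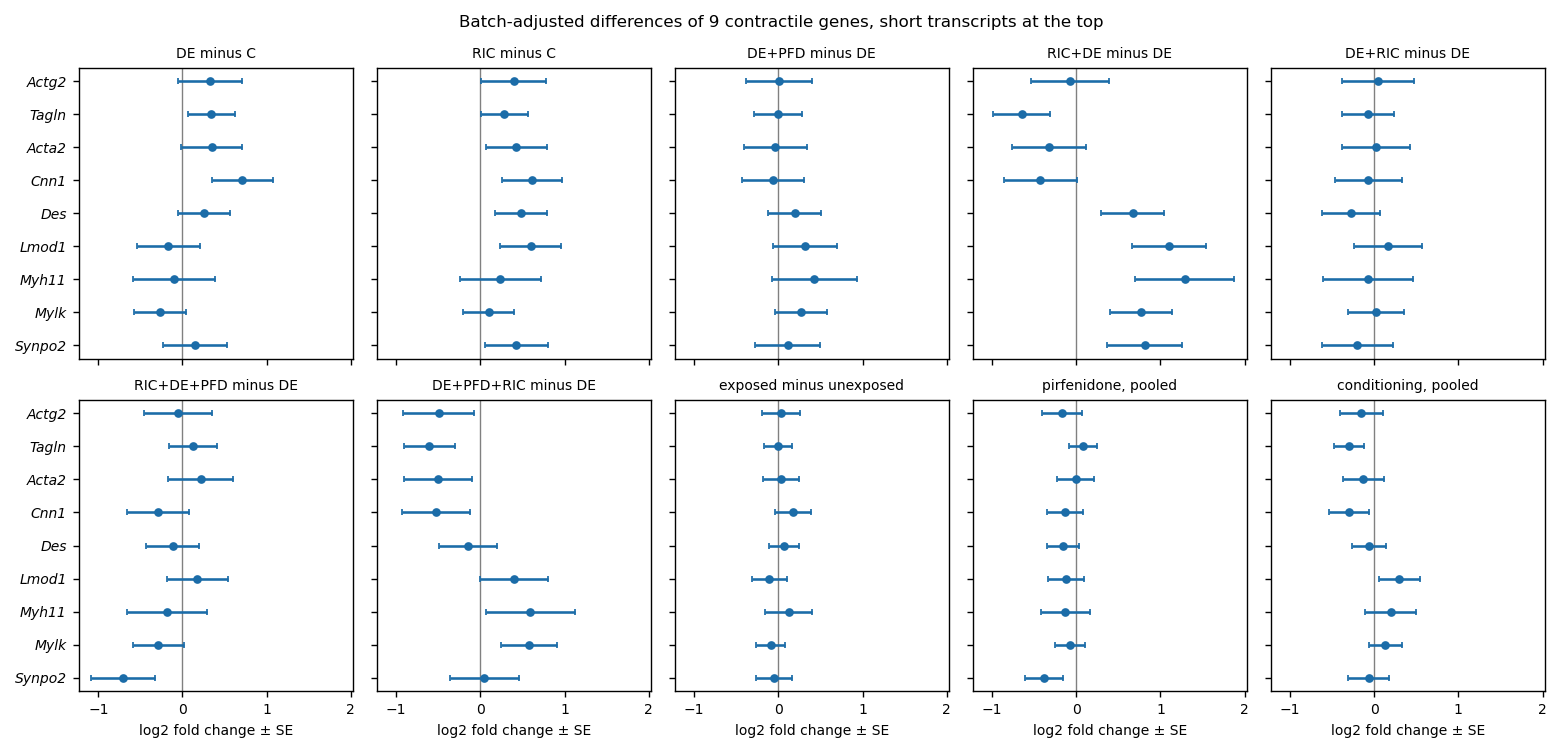
Log2 fold changes of 9 contractile genes (x axis, with bars of ± 1 SE from edgeR's batch-adjusted fit) in 7 comparisons of groups and 3 pooled ones, genes ordered by exon length from short at the top. In RIC+DE minus DE and DE+PFD+RIC minus DE the 4 short genes lie below 0 and the long genes above it, apart from Des at -0.15 in the second, and 0 of the values passed an adjusted p under 0.05.

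Preconditioning before exhaust. In RIC+DE minus DE the members parted by exon length: the 5 long ones, among them the myosin motor and its kinase, were above 0, and the 4 short ones, both actins, transgelin and calponin, below. Myh11 was at 584.9, 245.9 and 209.2 CPM in RIC+DE and 164.1, 170.2 and 206.7 CPM in DE, with a log2 difference of 1.29 ± 0.59 (SE, edgeR unadjusted p = 0.0408, adjusted p = 0.282). Mylk was at 437.0, 471.3 and 394.8 CPM in RIC+DE and 292.4, 333.0 and 356.1 CPM in DE, with a log2 difference of 0.77 ± 0.37 (unadjusted p = 0.049, edgeR adjusted p = 0.289). Tagln, in the other direction, was at 276.6, 176.3 and 196.3 CPM in RIC+DE and 320.2, 379.0 and 384.4 CPM in DE, with a log2 difference of -0.65 ± 0.33 (edgeR adjusted p = 0.308). These 3 genes did not overlap between the groups, against 41.6% of all genes tested, so 3 of 9 is not above the background.

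Lmod1 was at 59.0, 24.4 and 23.7 CPM in RIC+DE and 24.2, 20.0 and 26.7 CPM in DE, with a log2 difference of 1.10 ± 0.44 (unadjusted p = 0.0211, edgeR adjusted p = 0.274). Only RIC+DE 1 lay outside the DE range on the high side. Synpo2 was at 102.6, 37.9 and 39.5 CPM in RIC+DE and 40.2, 27.6 and 41.1 CPM in DE, a log2 difference of 0.81 ± 0.45. RIC+DE 2 and 3 fell within the DE range for this gene. Des was at 546.4, 185.5 and 350.4 CPM in RIC+DE and 278.7, 258.1 and 285.0 CPM in DE, a log2 difference of 0.67 ± 0.37, and RIC+DE spread on both sides of DE. The short members Acta2, Cnn1 and Actg2 were at -0.33 ± 0.44, -0.43 ± 0.43 and -0.08 ± 0.46. Acta2 was at -0.66 without RIC+DE 1 and at -0.007 without RIC+DE+PFD 1.

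The median of the 9 was 0.67, against 0.00 over all genes, and 0.18 without RIC+DE 1. Without C 1, RIC+DE 1 and RIC+DE+PFD 1, a set chosen after the values were seen, it was -0.31, and Myh11 was at 0.09, Lmod1 at 0.10, Mylk at 0.33 and Tagln at -0.89. Of the members, 3 were at an unadjusted p under 0.05, all above 0, where 17.3% of all genes were (7.82% above 0 and 9.47% below). edgeR called 0 genes and DESeq2 called 80, of which 0 were members. No date holds libraries of both groups, so the comparison rests on the date term estimated from the other groups and cannot be made within a date.

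Most genes of the contractile apparatus, excitation and contraction, and regulator lists lay above 0. Airway smooth muscle genes were above 0 in 7 of 8 tested (median 0.69), vascular smooth muscle genes in 8 of 9 (0.79) and pericyte genes in 10 of 15 (0.36). The myofibroblast and matrix list was divided, with 11 of 20 above 0 and a median of 0.11. Of 25 other contractile apparatus genes 19 were above 0, with 9 at an unadjusted p under 0.05 and 2 below 0 at it, and a median of 0.52. The leading ones were Ldb3, also shown above for its box, at log2 2.05 ± 0.53 (edgeR adjusted p = 0.25), and Tpm2, beta tropomyosin of skeletal and smooth muscle, at 1.43 ± 0.45 (edgeR adjusted p = 0.274). Of 24 excitation and contraction genes 23 were above 0, with 5 at an unadjusted p under 0.05, led by Chrm2, a muscarinic receptor of airway smooth muscle and heart, at 1.42 ± 0.48 and Atp2a2, the calcium pump of heart and smooth muscle, at 1.33 ± 0.46 (edgeR adjusted p = 0.274 for each). Chrm2, Pln, Casq2, Gucy1a1, Gucy1b1, Trpc6, Notch3 and Postn each stand on more than 1 of the lists used here. Among the SRF, MRTF and myocardin regulators all 21 tested were above 0, led by Notch3 at 1.51 ± 0.45, with a median of 0.41 and 0 called.

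Markers of other muscle were high in some of the same libraries. RIC+DE 1, the highest library for Myh11, Des, Lmod1 and Synpo2, held 778.8 CPM of Acta1, the actin of skeletal muscle, and RIC+DE 3 held 451.9 CPM, while RIC+DE 2 held 0.0754 and DE at most 0.329. The summed level of 13 skeletal muscle genes was 2937, 60.4 and 1519 CPM in RIC+DE and 109.6, 62.4 and 75.6 CPM in DE, where Myh4 was at 0. The 16 cardiac muscle genes summed to 4709, 1477 and 2206 CPM in RIC+DE and 1954, 1153 and 1254 CPM in DE, with none of the 16 at 0. The 13 airway cartilage genes summed to 167.8 CPM in RIC+DE 1, with a range of 3.09 to 167.8 in RIC+DE and 5.08 to 68.7 in DE. Des is also the intermediate filament of heart and skeletal muscle. The part of these markers in the result was not tested.

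**Figure D3:**
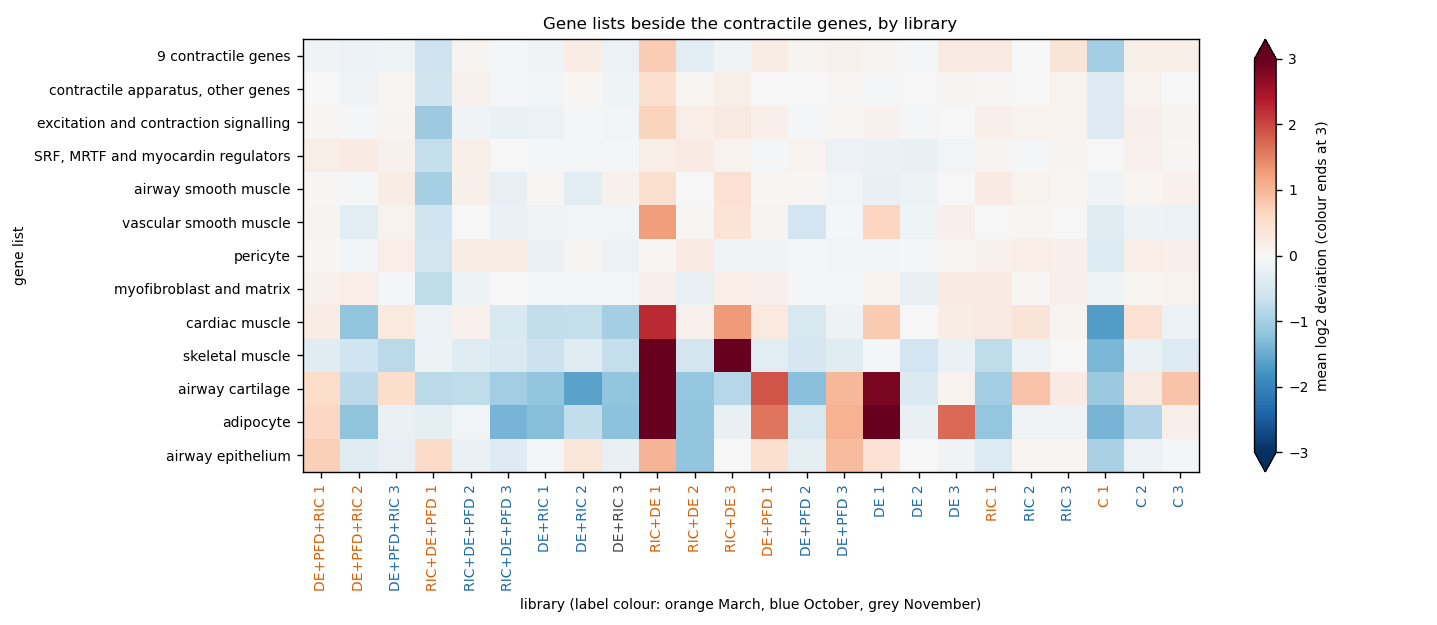
Mean log2 deviation from the mean of the 24 libraries (colour, ending at 3) for the 9 contractile genes and 12 other gene lists (rows) by library (columns). RIC+DE 1 is high for skeletal muscle at 5.38 and cardiac muscle at 2.23 as well as for the contractile genes at 0.77, and C 1 is low for cardiac muscle at -1.68 and for the contractile genes at -1.02.

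Perconditioning during exhaust. Between DE+RIC and DE lungs 0 of the 9 contractile genes passed the threshold. Because DE+RIC 3 is alone in November, the date term takes it up and these differences rest on DE+RIC 1 and 2. Des was at 203.9, 249.3 and 182.1 CPM in DE+RIC and 278.7, 258.1 and 285.0 CPM in DE. All DE+RIC libraries lay below all DE libraries for Des, the only such member, against 12.3% of all genes in either direction, and the log2 difference was -0.27 ± 0.34 (edgeR adjusted p = 1). The other 8 lay between -0.20 ± 0.42 (Synpo2) and 0.16 ± 0.41 (Lmod1), with Acta2 at 0.02 ± 0.40 (95% interval -0.82 to 0.87). The median was -0.07, against 0.01 over all genes. edgeR called 0 genes, with 3.23% at an unadjusted p under 0.05 (0.669% higher and 2.56% lower in DE+RIC) and 0 members among them, and DESeq2 called 13 genes and 0 members. Pln, at log2 -1.31 ± 0.56, led the excitation and contraction list (edgeR adjusted p = 1). The cardiac muscle genes were below 0 in 16 of 16, at 530.9 to 652.8 CPM summed in DE+RIC and 1153 to 1954 in DE, and their part in the value of Des was not tested.

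Pirfenidone in exposed lungs. DE+PFD and DE lungs overlapped for each of the 9 members, while 11.2% of all genes did not overlap. Acta2 was at 424.7, 364.4 and 457.1 CPM in DE+PFD, overlapping the values in DE, with a log2 difference of -0.03 ± 0.37 (95% interval -0.81 to 0.75). Tagln differed by -0.01 ± 0.28 (-0.60 to 0.59) and Myh11 by 0.43 ± 0.50 (-0.62 to 1.48). The median was 0.11, against -0.01 over all genes. edgeR called 0 genes, with 2.84% at an unadjusted p under 0.05 (1.23% higher and 1.61% lower in DE+PFD) and 0 members among them, and DESeq2 called 15 genes and 0 members. Over the 3 pirfenidone groups against their 3 counterparts without the drug, 8 of 9 members were below 0, from -0.38 ± 0.22 (Synpo2) to 0.08 ± 0.17 (Tagln), with a median of -0.13 against 0.02 over all genes. Without RIC+DE 1 the median was 0.03, with Acta2 at 0.10, Myh11 at 0.07, Lmod1 at 0.06 and Cnn1 at 0.03. Skeletal muscle genes were below 0 in 8 of 8 tested, 7 of them at an unadjusted p under 0.05, with a median of -1.50, and cardiac muscle genes in 14 of 16, and their part in the result was not tested. There edgeR again called 0 genes, with 4.3% at an unadjusted p under 0.05 (1.93% higher and 2.37% lower) and 0 members among them, and DESeq2 called 3 genes and 0 members.

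Preconditioning with pirfenidone. The RIC+DE+PFD libraries differed widely among themselves, with 0 of the 9 members past the threshold against DE. Mylk was at 87.0, 347.5 and 345.4 CPM in RIC+DE+PFD and 292.4, 333.0 and 356.1 CPM in DE, and Synpo2 at 10.7, 28.7 and 26.6 CPM in RIC+DE+PFD and 40.2, 27.6 and 41.1 CPM in DE. RIC+DE+PFD 1 alone lay far below the DE range for both genes. Synpo2 differed by log2 -0.70 ± 0.38 (edgeR adjusted p = 0.549), Mylk by -0.29 ± 0.30, Acta2 by 0.22 ± 0.38 and Tagln by 0.12 ± 0.29. Without RIC+DE+PFD 1 the last 3 turned sign, to 0.07 for Mylk, -0.22 for Acta2 and -0.18 for Tagln. Cnn1 and Des were lower in all 3 RIC+DE+PFD libraries than in all 3 DE libraries, 2 of 9 members against 12% of all genes in either direction. The median was -0.12, against 0.04 over all genes, and -0.18 without that library. edgeR called 0 genes, with 9.52% at an unadjusted p under 0.05 (4% higher and 5.52% lower in RIC+DE+PFD) and 0 members among them, and DESeq2 called 69 genes and 0 members. The excitation and contraction genes had a median of -0.39 with 19 of 24 below 0, led by Ednra, the endothelin receptor of smooth muscle, at -0.62 ± 0.19 (edgeR adjusted p = 0.33), and Prkg1, a cyclic GMP-dependent kinase that relaxes smooth muscle, at -0.98 ± 0.35 (edgeR adjusted p = 0.433).

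Perconditioning with pirfenidone. The short contractile genes lay lower in DE+PFD+RIC than in DE lungs, and Mylk higher, without passing the threshold. Besides Acta2 (300.0, 291.0 and 284.1 CPM in DE+PFD+RIC, 478.7, 376.0 and 463.6 in DE), Tagln was at 254.6, 210.7 and 216.9 CPM in DE+PFD+RIC and 320.2, 379.0 and 384.4 CPM in DE. Cnn1 was at 83.4, 64.2 and 58.0 CPM in DE+PFD+RIC and 98.5, 97.3 and 129.9 CPM in DE, and Actg2 at 27.2, 31.3 and 34.0 CPM in DE+PFD+RIC and 49.1, 39.0 and 60.3 CPM in DE. Mylk was at 373.5, 430.0 and 432.5 CPM in DE+PFD+RIC, against 292.4, 333.0 and 356.1 CPM in DE. These 5 of 9 members did not overlap between the groups, against 28.2% of all genes in either direction. In the fit with the date, Tagln was at log2 -0.60 ± 0.31 (edgeR adjusted p = 0.526), Cnn1 at -0.53 ± 0.40, Acta2 at -0.50 ± 0.40, Actg2 at -0.50 ± 0.42 and Mylk at 0.58 ± 0.33 (adjusted p = 0.532). Without C 1, Tagln was at -0.76, Acta2 at -0.71 and Actg2 at -0.71. Without RIC+DE+PFD 1 these genes were at -0.46, -0.28 and -0.32.

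The median of the 9 was -0.15, against -0.01 over all genes. Among October libraries alone, with DE+PFD+RIC 3 as the lone library of its group there and assumed to vary like the others, it was -0.44, with Acta2 at -0.65 and Tagln at -0.75. Adipocyte markers lay below 0 in 9 of 9 with a median of -2.07, 4 at an unadjusted p under 0.05, at 167.8 to 619.7 CPM summed in DE+PFD+RIC and 310.9 to 3025 in DE. Cartilage genes lay below 0 in all 9 tested, with a median of -1.75, and cardiac muscle genes in 13 of 16, and the part of these markers was not tested. edgeR called 0 genes, with 9.23% at an unadjusted p under 0.05 (4.88% higher and 4.35% lower in DE+PFD+RIC) and 0 members among them, and DESeq2 called 14 genes and 0 members. The SRF, MRTF and myocardin regulators had a median of 0.47 with 20 of 21 above 0, led by Gata6, a transcription factor of vascular smooth muscle, at 0.47 ± 0.16, and Notch3 at 1.20 ± 0.41 (edgeR adjusted p = 0.526 for each). This comparison, RIC+DE minus DE and the other 3 treated groups minus DE share the same DE libraries. Over the 4 conditioned exposed groups against DE and DE+PFD, the members had a median of -0.07, against -0.00 over all genes and -0.21 without RIC+DE 1. There edgeR called 0 genes with 6.7% at an unadjusted p under 0.05 (3.17% higher and 3.53% lower) and 0 members among them, while DESeq2 called 15 genes and 0 members.

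Pirfenidone together with conditioning. The interaction of pirfenidone with preconditioning, RIC+DE+PFD minus RIC+DE set against DE+PFD minus DE, was below 0 for the 5 long members and above 0 for the 4 short ones. In log2, Myh11 was at -1.90 ± 0.82, Synpo2 at -1.63 ± 0.61, Mylk at -1.33 ± 0.50 and Lmod1 at -1.25 ± 0.60, with edgeR adjusted p of 0.148, 0.108, 0.106 and 0.183. Tagln was at 0.78 ± 0.43 and Acta2 at 0.57 ± 0.56. These 4 of 9 members were at an unadjusted p under 0.05, where 27.2% of all genes were (18.2% above 0 and 9% below), edgeR called 0 genes, and DESeq2 called 1912 genes including Mylk and Synpo2. The median of the 9 was -0.98 with all libraries, against -0.05 over all genes, -0.54 without RIC+DE 1, -0.61 without RIC+DE+PFD 1 and 0.22 without both and C 1. Skeletal muscle genes were below 0 in 8 of 8 tested, 7 at an unadjusted p under 0.05 and with a median of -4.56, and cardiac muscle genes in 13 of 16, 6 at it, with a median of -1.47. Alveolar epithelium genes had 7 of 12 above 0 at an unadjusted p under 0.05, and the part of these markers in the result was not tested. With perconditioning the same interaction had a median of -0.09, against 0.01 over all genes, with members from -0.55 ± 0.57 (Actg2) to 0.28 ± 0.45 (Mylk). There edgeR called 0 genes, with 2.69% at an unadjusted p under 0.05 (1.5% higher and 1.18% lower) and 0 members among them, and DESeq2 called 6 genes and 0 members.

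**Figure D4:**
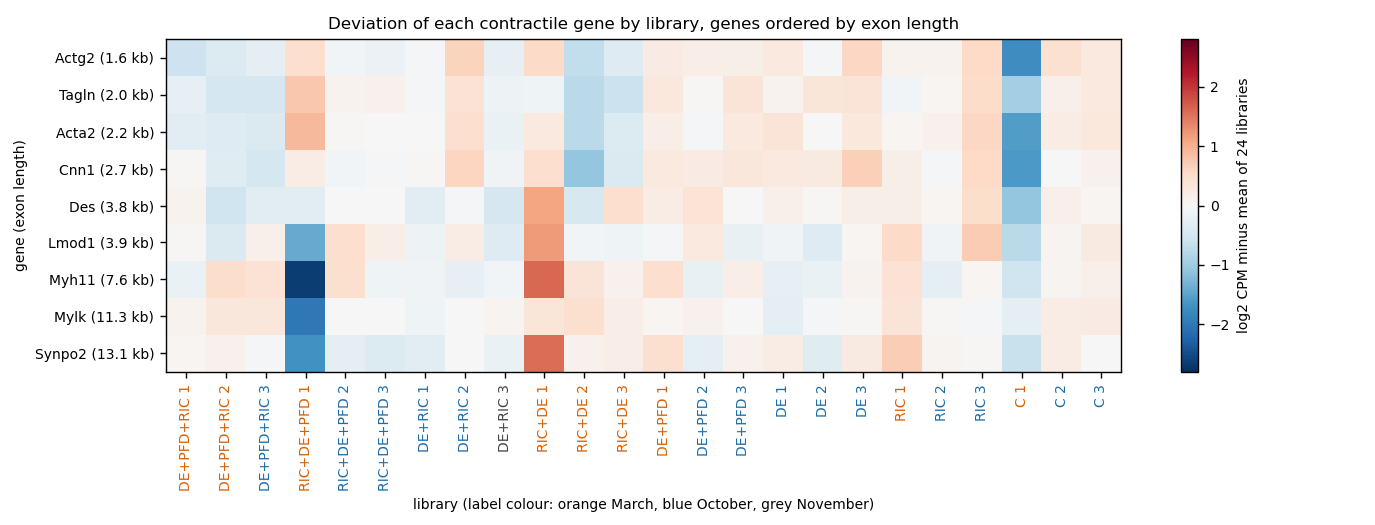
Log2 CPM of 9 contractile genes (rows, ordered by exon length) as deviation from the mean of the 24 libraries (columns, label colour by date). In RIC+DE+PFD 1 the short genes are above the mean and the long ones below it, in RIC+DE 2 the short ones are below, and C 1 is low in every row.

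Within libraries most members parted by exon length. With a boundary at 3000 bases of exon, set after the values were seen, Actg2 (1557 bases), Tagln (1988), Acta2 (2196) and Cnn1 (2736) are short, and Des (3754), Lmod1 (3948), Myh11 (7599), Mylk (11263) and Synpo2 (13089) are long. The balance, the mean log2 deviation of the short members minus that of the long ones, was 2.19 in RIC+DE+PFD 1 and between -0.89 and 0.53 in the other 23 libraries. It was below 0 in 7 of 9 March libraries and above 0 in 12 of 14 October libraries. The ratio of Acta2 to Myh11 CPM had a median of 1.37 in March (0.771 to 23.2) and 2.18 in October (1.115 to 3.14).

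The same split ran across the whole library. Spearman's rho between a gene's deviation and its exon length, across 16269 genes, which are not independent replicates, was -0.549 in RIC+DE+PFD 1 and 0.465 in RIC+DE 2, at the ends of the range. Of the 11 libraries with a positive rho, 9 had short members below long ones, and all 13 with a negative rho had short members above long ones. DE+PFD+RIC 3, from October, had a balance of -0.50 and a rho of 0.286, and the March libraries of its group had balances of -0.30 and -0.39 with rho of 0.181 and 0.453. All RIC+DE libraries had a positive rho (0.376, 0.465 and 0.421) and all DE libraries a negative one (-0.275, -0.307 and -0.210). The part of length in the differences between short and long members given above was not tested.

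**Figure D5:**
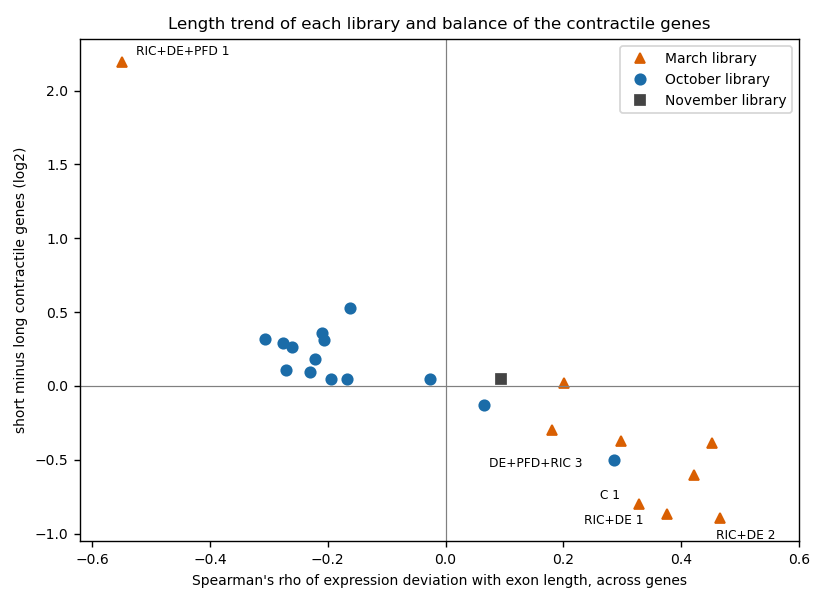
Balance of the contractile genes (y axis, mean log2 deviation of 4 short minus 5 long members) against Spearman's rho of expression deviation with exon length across 16269 genes (x axis), each point 1 library. RIC+DE+PFD 1 sits alone at 2.19 and -0.549, October libraries mostly lie above 0 with a negative rho, and March libraries mostly below 0 with a positive one.

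With group and date removed, pairs of members of the same length class had a median Pearson r of 0.85 over the 24 libraries (16 pairs, lowest 0.07), and pairs of different classes one of 0.17 (20 pairs, highest 0.89). Des, classed as long, was at 0.89 with Cnn1 and at 0.65 to 0.72 with Tagln, Acta2 and Actg2. With the long members Des was at 0.07 (Mylk), 0.29 (Myh11), 0.58 (Synpo2) and 0.66 (Lmod1). The tightest pairs were Actg2 with Acta2 at 0.96 and Tagln with Acta2 at 0.94, and the loosest was Mylk with Tagln at -0.38. Without RIC+DE+PFD 1 and DE 1 the medians were 0.79 and 0.71, and which of these libraries moved them was not tested. DE 1 is not among the libraries said above to stand apart. Without C 1, RIC+DE 1 and RIC+DE+PFD 1 the medians were 0.47 and 0.27. All these values share the libraries and their depth and are descriptions. Against the mean of the other members, r ran from 0.26 (Mylk) to 0.80 (Des), with Cnn1 also at 0.80, and without C 1, RIC+DE 1 and RIC+DE+PFD 1 from -0.13 (Mylk) to 0.86 (Actg2), with Des at 0.41.

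Among the genes outside the list most like the mean of the 9 members, by Pearson r of residuals over the 24 libraries, were Cap2, a cyclase-associated actin regulator, and Myom1, a myosin-binding protein of the sarcomere, both at 0.87. Trim55, a ubiquitin ligase of striated muscle, was at 0.86, and Slc6a17 and Lrrn2 were at 0.82. Flnc, the filamin of muscle, was at 0.81, as were Itga10, an integrin of cartilage, and Apol6, and Col17a1 was at 0.80. Without C 1, RIC+DE 1 and RIC+DE+PFD 1 the values of these genes ran from 0.28 (Lrrn2) to 0.73 (Flnc).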

How the data were processed

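Lung RNA was extracted with TRIzol, captured on oligo(dT) beads and amplified in a strand-specific way, per the labels' protocols. Per the submitters' processing notes, tools were FastQC 0.12.1, fastp 0.23.4, STAR 2.7.11b, featureCounts, R 4.4.1 and DESeq2, with build GRCm39. The authors' deposited matrix gives unscaled read counts, in whole numbers, for each gene in 24 libraries, and no source used here names the annotation release or strand setting. Symbols and exon lengths came from GENCODE M21 (GRCm38), matched by gene identifier: 51486 of 78275 genes, with 98.45% of counts. Exon length takes the exons of all annotated transcripts of a gene together, so it can exceed the length of the transcript expressed.

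edgeR 4.0.16 in R 4.3.3 was run on the counts (filterByExpr, leaving 17490 genes, TMM, quasi-likelihood, group and date terms, all 24 libraries, Benjamini-Hochberg over all genes, call at an adjusted p under 0.05). It was also run on simulated counts that held no date effect, unlike these data, and the outcome is not given here. CPM uses TMM-scaled library sizes, and log2 CPM a prior count of 2. Libraries of a group differed beyond counting noise in every pair (chi-square of 5.77 or more per gene). Alternatives were DESeq2 1.42.0, its size factors, no filter, no date term, November put in October, October alone, a replicate block, and libraries left out. Named genes are all members, in each other list the 2 with the smallest p where none passed, and the 10 most like the members, at a mean of 1 CPM or more, of which 1 is not reported here. Members and lists were chosen with earlier results of these data known.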

Additional observations from a re-analysis of the deposited data

How the results depend on the processing

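The contractile genes were called in no comparison by edgeR as reported, and 14 member values were called under an alternative. Without a filter on low counts, adjusted p was 0.00261 for Myh11 and 0.0116 for Lmod1 in RIC+DE minus DE. In the interaction of pirfenidone with preconditioning it was 0.000571 for Myh11, 0.00157 for Synpo2, 0.0376 for Mylk and 0.0394 for Lmod1, and in the test of any group difference 0.00223 for Myh11, 0.0253 for Lmod1 and 0.000345 for Synpo2. The log2 difference of Myh11 in RIC+DE minus DE was 1.289 without the filter and 1.2887 with it. With the filter, edgeR's F test of any group difference gave Myh11 an unadjusted p of 0.381. Calls over all genes also rose without the filter, as listed below, so these calls are not read as particular to the members. DESeq2 gave 0.0471 for Synpo2 and 0.0405 for Mylk in the preconditioning interaction, where edgeR gave 0.0466 for Mylk without RIC 1, and 0.0443 for Myh11 and 0.0429 for Mylk without RIC+DE+PFD 2. No call changed direction. Signs of uncalled member values changed in 83 of 927 values, and in 127 of 2592 with 1 library left out.

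In the order DE minus C, RIC minus C, DE+PFD, RIC+DE, DE+RIC, RIC+DE+PFD and DE+PFD+RIC minus DE, exposed minus unexposed, pirfenidone pooled, conditioning pooled, the interactions of pirfenidone with preconditioning and perconditioning, and any group difference, the genes called were 0 each as reported. They were 199, 63, 180, 1129, 229, 347, 306, 114, 200, 267, 2179, 164 and 2792 without a filter, and 17, 4, 15, 80, 13, 69, 14, 2, 3, 15, 1912, 6 and 1073 with DESeq2. Without the date term they were 102 in RIC+DE, 3 in DE+RIC, 9 in RIC+DE+PFD and 8 in DE+PFD+RIC minus DE, 1653 in the preconditioning interaction and 94 in any group difference. With November in October they were 2 in DE+RIC minus DE and 4 in any group difference. October libraries alone gave 1 in DE+RIC, 41 in RIC+DE+PFD and 1 in DE+PFD+RIC minus DE and 1 in the perconditioning interaction, and could not be fitted for RIC+DE minus DE, the pooled comparisons, the preconditioning interaction or any group difference. DESeq2's size factors in edgeR, and leaving out C 1, RIC+DE 1 and RIC+DE+PFD 1 or RIC+DE+PFD 1 and DE 1, gave 0 in each. The cause of these moves was not tested.

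With 1 library left out, the counts ran from 0 to 16 in DE minus C, 0 to 13 in DE+PFD, 0 to 54 in RIC+DE, 0 to 14 in DE+RIC, 0 to 36 in RIC+DE+PFD and 0 to 19 in DE+PFD+RIC minus DE, 0 to 5 for pirfenidone pooled, 0 to 12 for conditioning pooled, 0 to 2879 and 0 to 2 for the interactions with preconditioning and perconditioning, and 0 to 84 for any group difference. The preconditioning interaction gave 1659 calls without RIC 1, 2879 without RIC+DE+PFD 2 and 2037 without RIC+DE+PFD 3. The median of the members ran from 0.18 to 0.76 in RIC+DE minus DE and from -1.26 to -0.54 in the preconditioning interaction, and without C 1, RIC+DE 1 and RIC+DE+PFD 1 the medians were 0.028 in RIC minus C, -0.31 in RIC+DE minus DE and 0.22 in the interaction.

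The replicate numbers gave no sign of pairing the samples: over 84 pairs with the same number the correlation of deviations had a median of -0.00 and was over 0.1 in 16. Over 168 pairs with different numbers the median was 0.00, with 45 over 0.1. The date was not removed from these deviations. With the replicate block and the date term, edgeR called 16 genes in RIC+DE minus DE, 6 in the preconditioning interaction and 18 for any group difference, and 0 members. With 3 libraries a group, the interval of Acta2 in DE minus C ran from log2 -0.41 to 1.11, which bounds what these libraries can show.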
